A study of Mus musculus with 2 samples.

Results

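Mir17-Mir92 and Mir106b-Mir25 are 2 paralogous microRNA clusters, and their 9 hairpin genes were followed here in cerebral cortex. The members were taken by gene name from the deposited count tables: Mir17, Mir18, Mir19a, Mir20a, Mir19b-1 and Mir92-1 form the first cluster, and Mir106b, Mir93 and Mir25 form the second. They are 9 of 2202 microRNA genes counted. RNA under 30 nt was sequenced from the left cortex of female B6CASTF1/J mice at 25 days of age, the offspring of a laboratory strain crossed with a wild-derived one. The series has a single group with 2 libraries and no treatment named in its labels, numbered as biological replicates 1 and 2. The labels number the animals separately, although both entries point to the same donor record. No condition was contrasted with another, so the measurements below describe levels, their order and the distance between the libraries.

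Mir17-Mir92 is the cluster first described as an oncogenic microRNA transcript, and Myc and E2F factors are known to drive it in dividing cells. Its microRNAs repress inhibitors of the cell cycle and of cell survival, among them Cdkn1a and the proapoptotic Bim. In the developing cortex the cluster is known for keeping neural progenitors in expansion. Mir106b-Mir25 lies inside Mcm7, which encodes a subunit of the replicative helicase, and has been studied in neural stem cells. Each microRNA finds its targets mainly through the seed, bases 2 to 8 from its 5′ end, so that members with the same seed can act on overlapping target sets.

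The 9 genes carry 4 seeds, which cut across the clusters. The mature sequences below show how alike the members are, since reads can be assigned to a gene only where the sequences differ. For each gene the arm known as the abundant one is printed from RefSeq on GRCm38.p6, 5′ to 3′, with the seed in capitals.
Mir17 (miR-17-5p, chr14:115043684-115043706, plus strand): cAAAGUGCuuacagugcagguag
Mir20a (miR-20a-5p, chr14:115044183-115044205, plus strand): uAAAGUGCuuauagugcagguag
Mir106b (miR-106b-5p, chr5:138165787-138165807, minus strand): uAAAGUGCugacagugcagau
Mir93 (miR-93-5p, chr5:138165574-138165596, minus strand): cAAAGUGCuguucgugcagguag
Mir18 (miR-18a-5p, chr14:115043867-115043889, plus strand): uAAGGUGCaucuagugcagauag
Mir19a (miR-19a-3p, chr14:115044048-115044070, plus strand): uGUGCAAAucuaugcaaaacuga
Mir19b-1 (miR-19b-3p, chr14:115044358-115044380, plus strand): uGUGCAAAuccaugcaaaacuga
Mir92-1 (miR-92a-3p, chr14:115044476-115044496, plus strand): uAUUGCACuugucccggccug
Mir25 (miR-25-3p, chr5:138165332-138165353, minus strand): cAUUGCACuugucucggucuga

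Mir17, Mir20a, Mir106b and Mir93 share the miR-17 seed, Mir19a and Mir19b-1 the miR-19 seed, and Mir92-1 and Mir25 the miR-92 seed, while Mir18 has a seed of its own among the members. Positions count from 1 at the 5′ end of the first-named sequence, without gaps. Mir17 and Mir20a differ at C1U and C12U, Mir19a and Mir19b-1 at U11C alone, and Mir92-1 and Mir25 at U1C, C14U and C18U. The miR-19b and miR-92a sequences are each present whole in another annotated hairpin, that of Mir19b-2 and of Mir92-2 on the X chromosome. Mir19b-1 shares the run GCUGUGCAAAUCCAUGCAAAACUGA (25 nt) with Mir19b-2, and Mir92-1 shares GUAUUGCACUUGUCCCGGCCUG (22 nt) with Mir92-2. These were the 2 members with a shared stretch of at least 20 nt. For the other 7 the longest stretch shared with any hairpin that has a RefSeq sequence was 13 to 17 nt. RefSeq sequences matched 972 of 2202 counted genes, and hairpins without one were not compared. Reads that fit several loci were set apart from the gene counts in these tables (40.3% of replicate 1 reads and 39.0% of replicate 2 reads), so genes with a duplicated mature sequence can be undercounted.

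On mm10 the 6 hairpins of Mir17-Mir92 occupy 836 nt on the plus strand of chromosome 14, from 115043671 to 115044506. In GENCODE M21 all 6 lie within exon 2 of the long noncoding host gene Mir17hg (115042879 to 115046727). The 3 hairpins of Mir106b-Mir25 occupy 498 nt on the minus strand of chromosome 5, from 138165321 to 138165818, inside Mcm7 (138164583 to 138172422) and on its strand. They fall in an intron of 2 Mcm7 transcripts, intron 13 of one and intron 8 of the other. Mir93 and Mir25 also lie in exon 1 of a further Mcm7 transcript. Levels are given in CPM, the counts of a gene per 1000000 microRNA gene counts of its library, and the layout plot sets them along each cluster. Neighbouring hairpins are 35 to 96 nt apart in Mir17-Mir92 and 118 to 126 nt apart in Mir106b-Mir25.

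**Figure D1:**
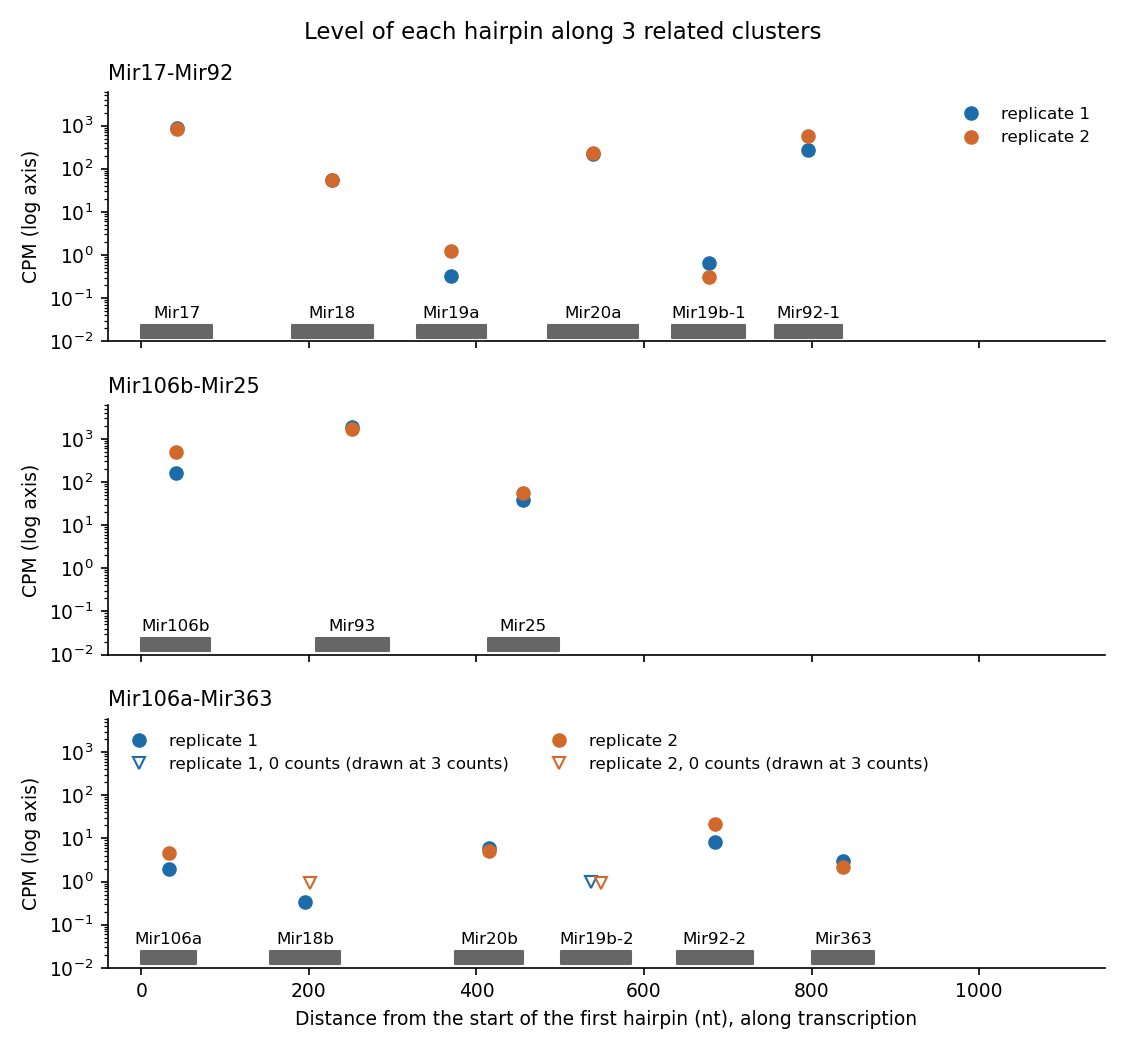
Level of each hairpin (CPM, log axis) against its distance from the first hairpin of its cluster in nt, for both libraries. Grey bars are the hairpins to scale, and open triangles mark 0 counts, drawn at the level of 3 counts. In Mir17-Mir92 the levels fall below 2 CPM at Mir19a and Mir19b-1 and lie above 50 CPM at the 4 other hairpins.

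Together the 9 genes held 10406 counts in replicate 1 and 12667 in replicate 2. Their share of microRNA gene counts was 0.345% (exact binomial 95% interval 0.338 to 0.352) in replicate 1 and 0.395% (0.388 to 0.402) in replicate 2. On library totals replicate 2 was higher, and the intervals did not overlap (log2 ratio 0.19). The direction turned with TMM, a scaling that centres the bulk of genes, chosen for this sum after the data were seen (log2 ratio -0.010). Intervals here cover counting error alone and not the spread between libraries. PCR copies were not marked by molecular identifiers and enter as separate reads, so the intervals can be too narrow. Mir17-Mir92 contributed 0.155% ± 0.0221 (SD, n = 2), and Mir106b-Mir25 contributed 0.214% ± 0.0131 from fewer hairpins. Mir106b-Mir25 exceeded Mir17-Mir92 by 1.47-fold in replicate 1 and 1.31-fold in replicate 2, a log2 ratio of 0.47 ± 0.12 in which library size cancels. Mir19b-1 and Mir92-1 of Mir17-Mir92 share their mature sequence with another hairpin and can be undercounted, so this ratio can be overstated. No Mir106b-Mir25 member shares its printed mature sequence in this way. With at least 10 counts in both libraries as the rule for detection, 7 of the 9 members were detected, beside 17.9% of all counted genes.

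The miR-17 seed held most of these counts. Mir93, the middle hairpin of Mir106b-Mir25, was the highest member, with 5581 counts in replicate 1 and 5422 in replicate 2. Its level was 1849.8 and 1689.4, or 1769.6 ± 113. It ranked 78th of all genes by mean level. Mir17, the leading hairpin of Mir17-Mir92, had 2589 and 2723 counts, or 858 and 848 CPM. Its mean of 853 ± 6.83 CPM placed it at rank 108. Mir93 exceeded Mir17 in CPM by 2.16-fold (exact 95% interval 2.06 to 2.26) in replicate 1 and 1.99-fold (1.90 to 2.09) in replicate 2, so the order held in both libraries.

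Mir20a and Mir106b were the lower members of that seed. Mir20a had 652 and 729 counts, or 216 and 227 CPM (222 ± 7.81). Mir106b had 493 and 1578 counts, or 163 and 492 CPM (328 ± 232). Mir20a thus lay close together in the libraries, while Mir106b was low in replicate 1 and high in replicate 2, on either side of Mir20a.

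Mir18, the sole member with the miR-18 seed, had 163 and 174 counts. Its level was 54.0 CPM in replicate 1 and 54.2 CPM in replicate 2, an SD of 0.249% of the mean on this scale. It lies 96 nt after Mir17 and stood 15.9-fold below it in replicate 1 (interval 13.6 to 18.7) and 15.6-fold below it in replicate 2 (13.4 to 18.3).

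Almost no counts came from the miR-19 hairpins, whose microRNAs are known to account for much of the oncogenic activity of the cluster. Mir19a had 1 count in replicate 1 and 4 in replicate 2. Mir19b-1 had 2 counts and 1 count. Both genes were near the floor, where even a gene with 0 counts could be at 0.994 CPM in replicate 1 or 0.935 CPM in replicate 2 (the level of 3 counts). Mir20a begins 75 nt after Mir19a in the same exon. The ratio of Mir20a to Mir19a counts was 652 (exact 95% interval 117 to 25792) in replicate 1 and 182 (70.9 to 671) in replicate 2. Mir19b-1 shares its mature sequence with Mir19b-2, which had 0 counts in both libraries. The RefSeq table lists the sequence of Mir19a for no other annotated hairpin, and its longest stretch shared with one was 13 nt, with Mir19b-2. Copies outside the hairpins with a RefSeq sequence were not searched for.

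The adjoining hairpins of Mir19a and Mir20a are shown because they differ most in counts among direct neighbours with unshared mature sequences. Capitals mark the mature arms that RefSeq lists, 1 for Mir19a and 2 for Mir20a.
Mir19a (chr14:115044000-115044081, plus strand): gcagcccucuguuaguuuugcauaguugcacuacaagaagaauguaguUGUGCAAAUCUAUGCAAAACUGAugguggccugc
Mir20a (chr14:115044157-115044263, plus strand): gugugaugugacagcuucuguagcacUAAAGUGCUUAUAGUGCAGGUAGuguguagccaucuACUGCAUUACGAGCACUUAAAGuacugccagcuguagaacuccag
The printed mature sequence of Mir19a has the lowest GC content of the 9, at 34.8%. Those of Mir20a and Mir19b-1 have the same value, 39.1%. Mir19b-1 shares its sequence with Mir19b-2 and can be undercounted, so its counts cannot be set against those of Mir20a. Any link between GC content and counts was not tested. Across the other members the GC content ran from 42.9% for Mir106b to 57.1% for Mir92-1.

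Within the miR-92 seed, Mir92-1, the last hairpin of Mir17-Mir92, had 812 and 1859 counts. This is 269 CPM in replicate 1 and 579 CPM in replicate 2 (424 ± 219), with replicate 2 the higher. Mir25, the last hairpin of Mir106b-Mir25, had 113 and 177 counts, or 37.5 and 55.2 CPM (46.3 ± 12.5). The mature sequence of Mir92-1 occurs whole in Mir92-2, which had 25 and 70 counts.

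**Figure D2:**
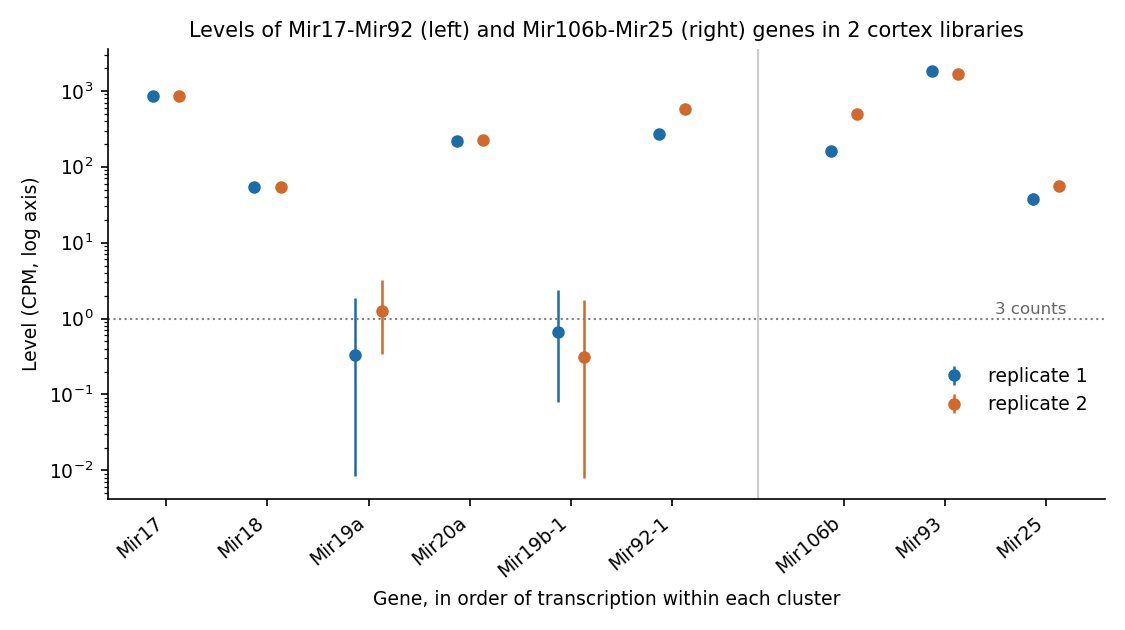
Level of each member in CPM (log axis) in replicates 1 and 2, with exact Poisson 95% intervals that cover counting error. Mir93 lies highest at 1849.8 and 1689.4 CPM, Mir106b and Mir92-1 differ most between libraries among detected members, and the intervals of Mir19a and Mir19b-1 reach below 0.1 CPM.

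By mean CPM the order was Mir93, Mir17, Mir92-1, Mir106b, Mir20a, Mir18, Mir25, Mir19a and Mir19b-1. Reads have the length of a mature microRNA rather than of the hairpin. Per 100 nt of hairpin all 9 kept their places. Neighbours whose ranges over both libraries did not overlap were Mir93 and Mir17, Mir17 and Mir92-1, Mir20a and Mir18, and Mir25 and Mir19a. The order is one of gene counts: Mir92-1 and Mir19b-1 have duplicated mature sequences and can be undercounted, so their places can be too low. Mir92-1 was above Mir106b in each library, yet their ranges overlapped. Mir106b and Mir20a, Mir18 and Mir25, and Mir19a and Mir19b-1 changed places between libraries and were not separated beyond their spread. The levels followed neither the position along the transcript nor the seed, as the layout plot shows, since hairpins of 1 seed ran from 46.3 to 424 CPM and from 222 to 1769.6 CPM.

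The libraries were then compared gene by gene with a two-sided exact binomial test given TMM-scaled library sizes. This compares 2 libraries of 1 group and not conditions. Of all 496 genes with at least 10 counts in total, 57.1% were called at an adjusted p below 0.05, 26.6% of them all being higher in replicate 2 and 30.4% in replicate 1. Of the 9 members, 7 entered the test and 4 of them were called, 2 higher in each library. All 7 had over 100 counts in total, and among all 291 genes with at least that many 81.4% were called. TMM moved log2 ratios by -0.20 against plain library totals. With totals, 282 genes (56.9%) were called, 180 of them higher in replicate 2, against 132 of 283 with TMM.

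Mir106b was 2.61-fold higher in replicate 2 (log2 ratio 1.38, 95% interval 1.24 to 1.53, exact binomial test, Benjamini-Hochberg adjusted p = 1.37e-87). Mir92-1 was 1.87-fold higher in replicate 2 (log2 ratio 0.90, interval 0.78 to 1.02, exact test, adjusted p = 2.30e-52). Mir93 was 1.26-fold higher in replicate 1 (log2 ratio -0.34, interval -0.39 to -0.28, exact test, adjusted p = 1.82e-33). With TMM, Mir106b was the sole tested member over 2-fold apart. With library totals Mir92-1 was over 2-fold apart too, at 2.15-fold. Of the 231 tested genes whose mean reached 50 CPM, 13.4% differed by more than 2-fold.

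Mir17 was 1.17-fold higher in replicate 1 with TMM (log2 ratio -0.22, exact binomial test, adjusted p = 7.47e-08). That call ended with library totals (log2 ratio -0.016, exact test, adjusted p = 0.77). For 3 members the test missed the threshold, at log2 ratios of -0.20 for Mir18 (exact test, adjusted p = 0.29), -0.13 for Mir20a (adjusted p = 0.13) and 0.35 for Mir25 (adjusted p = 0.074). For Mir18 and Mir20a the sign turned with library totals, to 0.0051 and 0.072. Mir25 passed with library totals (log2 ratio 0.56, exact test, adjusted p = 0.0027), and Mir20a passed with DESeq2 size factors (log2 ratio -0.18, exact test, adjusted p = 0.041). The median absolute log2 ratio was 0.34 over the 7 members and 0.52 over all genes tested. The genes tested include many with far fewer counts than any of these members, and their ratios carry more counting error. The medians are not matched for level, so they do not show that the members were steadier than other genes.

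**Figure D3:**
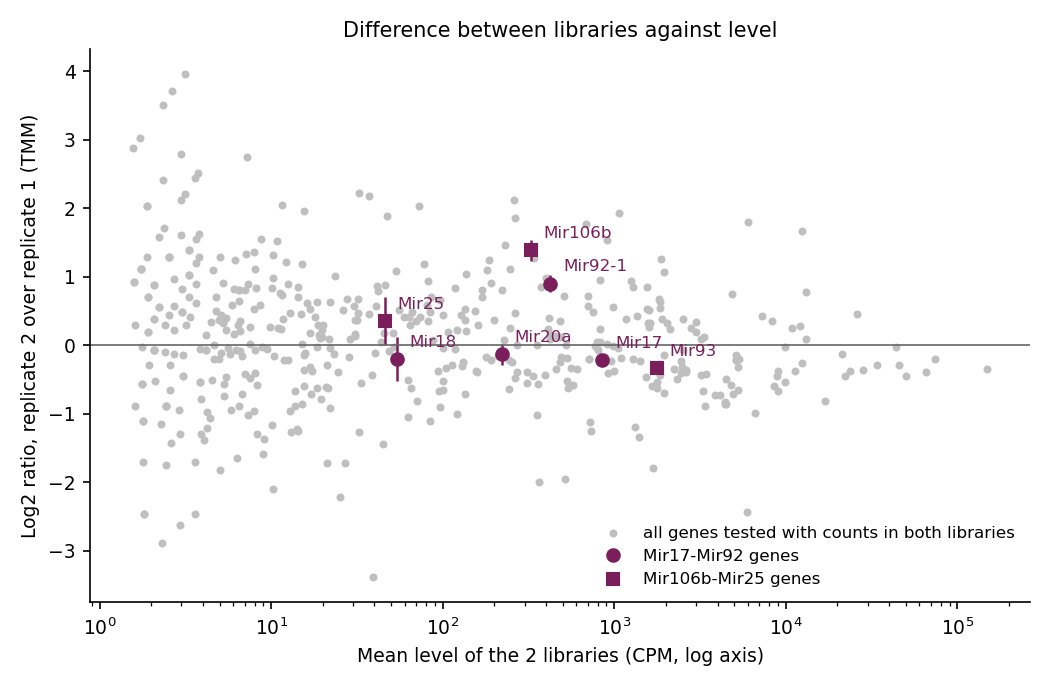
Log2 ratio of replicate 2 over replicate 1 after TMM scaling against mean level (CPM, log axis). Grey points are all tested genes with counts in both libraries, and purple points are the 7 tested members with 95% counting intervals. Mir106b at 1.38 and Mir92-1 at 0.90 lie above 0, while Mir17, Mir20a, Mir18 and Mir93 lie between -0.34 and -0.13.

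Within a cluster the genes share an annotated host, and ratios between them do not depend on library scaling. In Mir17-Mir92 the ratio of Mir17 to Mir20a counts was 3.97 (exact 95% interval 3.64 to 4.33) in replicate 1 and 3.74 (3.44 to 4.06) in replicate 2, within counting error of each other. The ratio of Mir17 to Mir92-1 was 3.19 (2.95 to 3.45) and 1.46 (1.38 to 1.55), with intervals apart. Mir92-1 accordingly held 19.2% of the cluster's counts in replicate 1 and 33.9% in replicate 2, while Mir17 held 61.4% and 49.6%. Reads that fit both Mir92-1 and Mir92-2 are outside these counts, so the share of Mir92-1 can be understated. In Mir106b-Mir25 the ratio of Mir93 to Mir106b was 11.3 (10.3 to 12.4) and 3.44 (3.25 to 3.64). Mir93 held 90.2% and 75.5% of that cluster's counts, Mir106b 7.97% and 21.99%, and Mir25 1.83% and 2.47%. All 3 ratios within Mir106b-Mir25 differed between the libraries beyond counting error: Mir93 to Mir25 was 49.4 (41.0 to 60.04) and 30.6 (26.4 to 35.8), and Mir106b to Mir25 was 4.36 (3.55 to 5.40) and 8.92 (7.63 to 10.5).

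**Figure D4:**
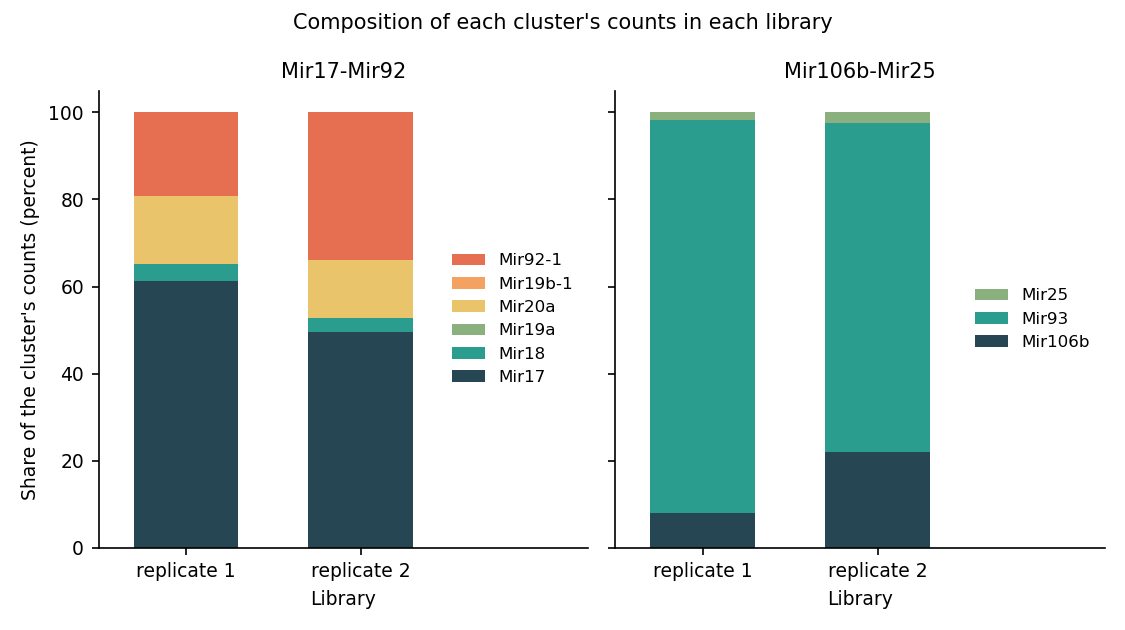
Share of each cluster's counts (percent, stacked from 0) held by each gene in replicates 1 and 2. Mir92-1 takes 19.2% and 33.9% of Mir17-Mir92, Mir106b takes 7.97% and 21.99% of Mir106b-Mir25, and Mir19a and Mir19b-1 are too small to be seen. Mir92-1 and Mir19b-1 have duplicated mature sequences and can be undercounted.

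A further paralogous cluster, Mir106a-Mir363 on the minus strand of the X chromosome (52741693 to 52742567), gave few counts. Its 6 genes summed to 59 and 108 counts, or 26.6 ± 9.97 CPM, beside 3698 ± 352 CPM for the 9 members. Mir20b (18 and 16 counts) and Mir92-2 (25 and 70) were detected. Mir106a had 6 and 15 counts, Mir363 had 9 and 7, Mir18b had 1 and 0, and Mir19b-2 had 0 in both. The mature sequence of Mir106a differs from that of Mir17 at U10A alone, and Mir17 stood 432-fold (198 to 1177) and 182-fold (110 to 325) above it. Mir20a stood 36.2-fold (22.7 to 61.5) and 45.6-fold (27.9 to 80.1) above Mir20b.

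The share of a seed that came from the 2 clusters differed widely between the miR-17 and the miR-92 seed. Seeds were known only for counted genes with a RefSeq sequence. Of 7 such genes with the miR-17 seed, the 4 members held 99.7% of the counts in each library. The remainder lay in Mir20b and Mir106a, with Mir6383 at 0. All genes of that seed together held 0.318% ± 0.0121 of microRNA gene counts. Of 7 such genes with the miR-92 seed, Mir92-1 and Mir25 held 8.42% in replicate 1 and 8.97% in replicate 2. Reads that fit both Mir92-1 and Mir92-2 are outside the gene counts, so the part held by Mir92-1 can be understated. By gene counts the miR-92 seed was led by Mir92b on the minus strand of chromosome 3 (89227116 to 89227198). It had 9970 and 20529 counts, or 3304.5 and 6396.6 CPM. Its mature sequence from chr3:89227126-89227147 shows the same seed in capitals.
Mir92b (miR-92b-3p, minus strand): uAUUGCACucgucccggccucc
Compared with miR-92a over 21 bases it differs at U10C and G21C. Mir32 (55 and 52 counts) was detected, and Mir367 had 0 counts in both libraries.

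Mir92b was 12.3-fold (11.4 to 13.2) above Mir92-1 in replicate 1 and 11.04-fold (10.5 to 11.6) above it in replicate 2, so these genes kept about the same ratio while both were higher in replicate 2. Of 6 tested genes with the miR-92 seed, 3 were called, and all 3 were higher in replicate 2, beside 57.1% of all genes called and 26.6% called in that direction: Mir92b (log2 ratio 0.75), Mir92-1 (0.90) and Mir92-2 (1.19). Mir32 at -0.37 and Mir363 at -0.66 had the other sign and were not called. Mir92-1 and Mir92-2 share their mature sequence, and how reads were assigned between them was not tested. Reads that fit both are outside the gene counts, so the fold of Mir92b over Mir92-1 can be overstated.

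**Figure D5:**
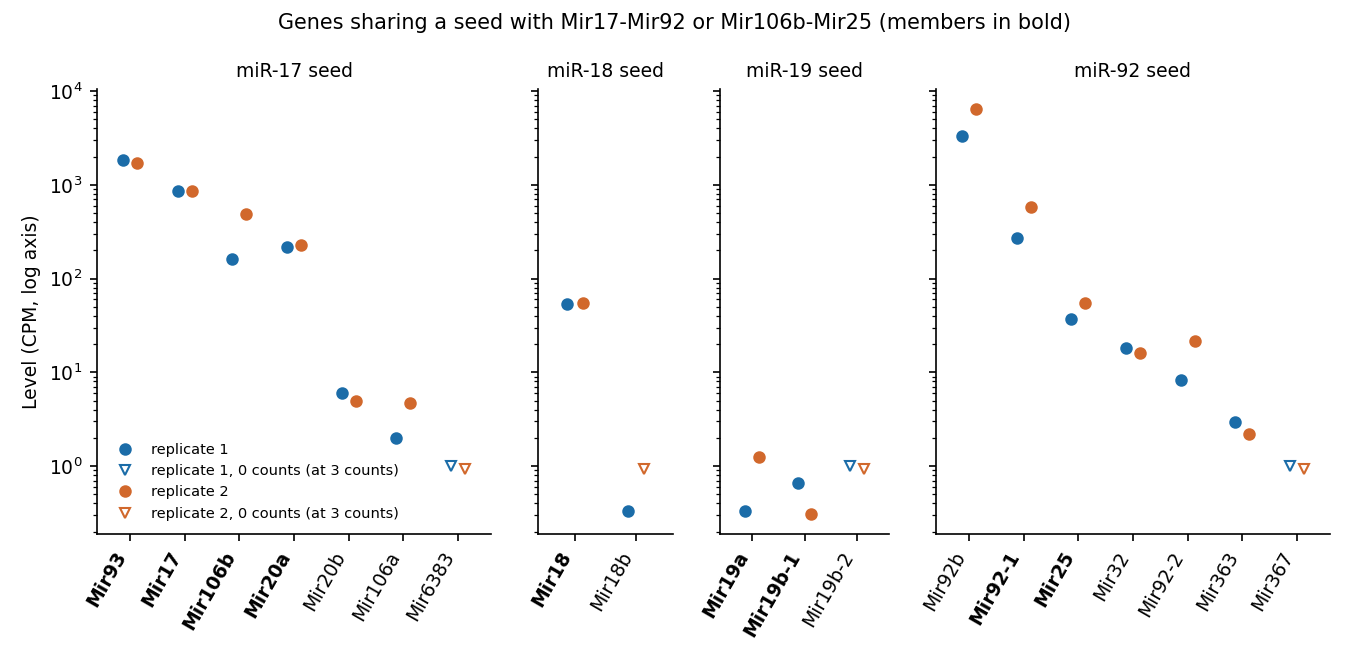
Level (CPM, log axis) of every counted gene whose RefSeq mature sequence carries the seed of a member, by seed, in replicates 1 and 2. Members are in bold, and open triangles mark 0 counts, drawn at 3 counts. Members lead the miR-17 and miR-18 seeds, Mir92b leads the miR-92 seed, and no gene of the miR-19 seed exceeds 1.246 CPM. Genes with a duplicated mature sequence (Mir19b-1, Mir19b-2, Mir92-1 and Mir92-2) can be undercounted.

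Unequal gene counts among neighbouring hairpins were not peculiar to these loci. The tables hold 27 runs of at least 3 microRNA genes on 1 strand with neighbours at most 10 kb apart, and every gene was detected in 6 of them. Among those 6 the highest gene exceeded the lowest by 38.2-fold in Mir106b-Mir25, by 717-fold from Mir23b to Mir24-1 and by 3.12-fold from Mir99b to Mir125a, and 4 runs had a larger fold than Mir106b-Mir25. Shared sequence was not examined for the genes of those other runs. A gene with a duplicated mature sequence can be undercounted, which would enlarge the fold of its run where that gene is the lowest. Over detected genes alone, an alternative added after the values were seen, Mir17-Mir92 spanned 15.8-fold across 4 genes, and 10 of 12 runs had a larger fold. That fold leaves out Mir19a and Mir19b-1, at means of 0.789 and 0.487 CPM, so it understates the spread of the whole cluster. The genes nearest to Mir93 by distance of log2(CPM + 1) in the 2 libraries were Mirlet7c-2 (0.072), Mir431 (0.11) and Mir150 (0.14). Those nearest to Mir17 were Mir532 (0.074), Mir7689 (0.16) and Mir3099 (0.20). With 2 libraries this likeness is one of level more than of pattern.

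The libraries held 3017058 own-strand microRNA gene counts in replicate 1 and 3209361 in replicate 2, of 8491339 and 9289252 reads. Of 9 neuronal marker genes 6 were detected, and the list summed to between 200720 and 213555 CPM per library. Mir139 alone held 155820 CPM in replicate 1 and 141898 CPM in replicate 2. The 3 Mir124a genes had 0 to 9 counts per library, and whether setting apart multi-locus reads lowered these counts was not tested. None of 9 counted marker genes of pluripotent cells was detected (3.43 to 3.65 CPM in sum). The 3 red blood cell genes were all detected and summed to 51.04 CPM in replicate 1 and 75.4 in replicate 2, and the endothelial gene Mir126a stood at 5714 and 8835 CPM. On CPM these lists were higher in the same library as Mir106b and Mir92-1, and their part in that difference was not tested. With TMM the log2 ratios were 0.67 for Mir451a, 0.42 for Mir126a, 0.090 for Mir486 and -0.049 for Mir144. Mir486 and Mir144 were not called. The 3 blood and immune genes summed to 2060.6 and 1627.4 CPM, higher in replicate 1. In whole tissue, fewer cells of a type and less RNA per cell cannot be told apart.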

How the data were processed

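Read counts per microRNA gene were used as deposited, 1 table for each of 2 libraries. Per the labels and the deposited notes the authors mapped to mm10 with GENCODE M21. For the aligner and counter, the name was not given in the sources used here. Own-strand values, a column identified from the numbers themselves, were used. Rows for 4 read classes were left out of library sizes. Both arms of a hairpin enter 1 count. CPM used the sum of own-strand counts. Exact binomial tests used edgeR TMM factors over all genes with at least 10 counts in total, adjusted by Benjamini-Hochberg, with calls at an adjusted p below 0.05. They were checked on simulated data with counting error alone, which covers neither the spread between libraries nor the TMM step. Sequences came from RefSeq (GRCm38.p6), which matched 972 of 2202 counted genes and all 9 members.

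Members and lists were chosen with earlier results of these data known. Genes named were the members, the Mir106a-Mir363 genes, up to 3 further genes per seed and the 3 nearest to each of the 2 highest members. Clusters used to show the range of spread were named after their values were seen. Alternatives were the either-strand column, library totals, DESeq2 size factors, all reads as denominator, other count minimums, thinning, other stretch lengths and leaving out each replicate. Python 3.11.15, scipy 1.17.1, R 4.3.3, edgeR 4.0.16 and DESeq2 1.42.0 were used.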

Additional observations from a re-analysis of the deposited data

How the results depend on the processing

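Counts of the 9 members were the same in the either-strand column, where the smaller total raised the Mir106b-Mir25 share to 0.230%, that of all miR-17 seed genes to 0.341% and that of miR-18 seed genes to 0.00582%. With all reads as denominator the shares fell to 0.0544% for Mir17-Mir92, 0.0751% for Mir106b-Mir25 and 0.129% for both. Leaving out a replicate kept 5 to 7 of the 9 members in their place in the order. Counting detected genes alone, 8 of 12 runs had a larger fold than Mir106b-Mir25. With library totals the log2 ratios of Mir18 and Mir20a turned to 0.0051 and 0.072. Summed counts, replicate 2 over replicate 1, had log2 ratios of 0.12 (Mir106b-Mir25) and 0.19 (both clusters) on library totals. These turned to -0.080 and -0.010 with TMM and to -0.12 and -0.055 with DESeq2 size factors. For the sums, both scalings were alternatives chosen after seeing the data. The number of members called was 4 or 5 in each scaling, filter, column and thinning tried, while the share of all genes called ran from 37.2% at 1 count to 81.4% at 100 counts. Detected members numbered 7 at 10 and at 100 counts and 9 at 1 count. The members sharing a stretch numbered 2 at 18, 20 and 22 nt. Depth limits Mir19a and Mir19b-1, with 1 to 4 counts per library. No paired analysis was possible because the series has 1 group.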

Other observations

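The opposite-strand column held 0 counts for the 9 members and for the 6 genes of Mir106a-Mir363 in both libraries. Elsewhere in the tables, 31 genes had own-strand counts but 0 in the either-strand column in both libraries, and Mir451a and Mir142 among the marker genes were of this kind.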
